A study of Mus musculus with 2 samples.

Results

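The genes followed here are 9 astrocyte genes with roles in glutamate, potassium and water handling: Slc1a2, Slc1a3, Glul, Slc7a10, Kcnj10, Aqp4, Slc4a4, Gja1 and Gjb6. They were chosen by name, and 9 of 9 were measured among the 20210 genes of the merged count table. Cells came from mice of the genotype Ins2-Cre;tdTomato+/-;Irx3/5+/-, called dHet because both Irx3 and Irx5 are heterozygous, and from Ins2-Cre;tdTomato+/- controls. Both groups were CD-1 mice at postnatal day 10 and both carried Ins2-Cre and the tdTomato reporter, so the sort took viable cells in which Cre, driven by the Ins2 promoter, had been active. Tissue was the arcuate nucleus with the median eminence, the floor of the hypothalamus. Each genotype gave 1 library from a pool of 5 animals. The spread between animals could therefore not be measured, no test was made, and every interval given is a 95% interval that covers counting error only.

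Astrocytes clear glutamate from the synaptic cleft with the sodium-coupled transporters encoded by Slc1a2 and Slc1a3 and turn it into glutamine with glutamine synthetase, the product of Glul. Potassium released by active neurons enters astrocytes through the inward rectifier channel encoded by Kcnj10 and spreads through gap junctions built from the connexins Gja1 and Gjb6. Aqp4 is the main water channel of the brain and sits in astrocyte endfeet, Slc4a4 is a sodium bicarbonate cotransporter, and Slc7a10 exchanges small neutral amino acids such as serine and glycine. Tanycytes, radial glia-like cells in the wall of the third ventricle, share part of this equipment.

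Upstream sequence is shown for 3 of the 9 genes: the glutamate transporter gene Slc1a3, which tanycyte-like cells carried too, and Glul and Gjb6, which had the highest genotype ratios in astrocyte-like cells. RefSeq promoters (build GRCm38.p6) were found for 8 of the 9 genes, all but Aqp4. The window listed for Slc1a2 lies inside the annotated gene, at an internal start, and is not shown. The 250 bases before the annotated start are given 5′ to 3′ on the strand of the gene. The windows are chr15:8710808-8711057 on the minus strand for Slc1a3, chr1:153899679-153899928 on the plus strand for Glul and chr14:57133612-57133861 on the minus strand for Gjb6. Capitals mark each match, on either strand, to one of 4 motifs, and no matches overlapped in these windows. CCAAT boxes were searched by that spelling. GC boxes were searched as GGGCGG, the core of sites for Sp family factors. The spelling TATAAA, that of many TATA boxes, was searched at any distance from the start. The core that Iroquois factors bind was searched as ACATGT, which reads the same on both strands.
Slc1a3: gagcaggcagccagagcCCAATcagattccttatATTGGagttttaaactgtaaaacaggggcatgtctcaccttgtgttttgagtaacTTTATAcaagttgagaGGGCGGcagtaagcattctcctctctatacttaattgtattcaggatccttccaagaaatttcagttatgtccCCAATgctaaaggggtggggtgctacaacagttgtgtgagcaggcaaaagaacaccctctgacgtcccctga
Glul: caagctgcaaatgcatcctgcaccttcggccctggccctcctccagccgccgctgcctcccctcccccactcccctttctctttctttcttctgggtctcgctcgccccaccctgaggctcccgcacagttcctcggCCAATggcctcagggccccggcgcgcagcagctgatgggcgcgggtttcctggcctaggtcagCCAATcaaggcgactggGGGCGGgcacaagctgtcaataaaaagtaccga
Gjb6: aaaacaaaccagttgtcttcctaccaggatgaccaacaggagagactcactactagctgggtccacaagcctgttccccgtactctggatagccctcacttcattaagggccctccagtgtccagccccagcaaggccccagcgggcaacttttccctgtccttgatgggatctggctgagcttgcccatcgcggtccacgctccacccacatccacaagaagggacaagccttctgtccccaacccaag

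The Glul window held 15 CG dinucleotides, with 2 CCAAT boxes and 1 GC box, and 72.7% of the 32851 promoters in the table held fewer CG dinucleotides. The Gjb6 window held 5 CG dinucleotides and none of the 4 motifs. Slc1a3 had 3 CCAAT boxes, 1 GC box and 1 match to TATAAA, which lay on the opposite strand and far from the start, unlike a TATA box in its usual place. Over all promoters of the table, 33.85% held a CCAAT box, 32.7% a GC box, 12.4% a TATAAA match and 4.58% the Iroquois core, which was in none of the windows of the 8 genes. These are letters in a window: nothing was measured there, and 3′ counts do not show which start was used.

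Cells were clustered with the 9 genes kept out of the variable genes, and clusters were named from other markers. Astrocyte-like cells numbered 426 in the dHet library and 418 in the control library, and 13 of 13 astrocyte markers were found in at least 25% of them in both. One tanycyte-like group was led by Rax, with 209 dHet and 255 control cells, and another by Scn7a and Cldn10, with 47 dHet and 74 control cells. Rax and Cldn10 were not confined to the groups they name. Rax was in 61.7% of dHet and 75.7% of control cells of the Scn7a and Cldn10 group. Cldn10 was in 89.4% of dHet and 81.6% of control astrocyte-like cells. Irx3 and Irx5 were both lower in dHet astrocyte-like cells, Irx3 at 7.48 CPM in dHet and 24.3 CPM in control cells, a ratio of 0.308 (0.178 to 0.513), and Irx5 at a ratio of 0.566 (0.410 to 0.775). CPM here means UMIs per 1000000 UMIs of the group. The libraries held 71827597 UMIs in 3939 dHet barcodes and 63100794 UMIs in 3479 control barcodes, and 4 barcodes occurred in both. Median depth per cell was 6388.5 and 5624 UMIs in dHet and control astrocyte-like cells, 7654 and 9120 UMIs in the Rax group, and 10170 and 12525 UMIs in the Scn7a and Cldn10 group.

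All 9 genes were more than 2-fold higher in astrocyte-like cells than in Rax tanycyte-like cells in each library. Of all genes with at least 50 UMIs in these cells, 10.6% were that much higher in the dHet library and 11.4% in the control library. The line was read on the log2 scale after 5 CPM had been added to both sides. The median log2 ratio of the 9 genes was 3.12 in the dHet library and 2.83 in the control library, against -0.06 and -0.07 for all genes tested. The groups of cells come from the same transcriptomes, so these ratios describe the groups and test nothing. The size of the gap differed between genes and does not rank their levels in tanycyte-like cells. Slc1a2, with a wide gap, stood at 294 CPM in dHet and 216 CPM in control Rax tanycyte-like cells. Kcnj10, with a narrower gap, stood at 75.5 CPM in dHet and 76.8 CPM in control ones.

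Slc7a10 had the widest gap. It stood at 768 CPM in astrocyte-like and 25.7 CPM in Rax tanycyte-like cells of the dHet library, a ratio of 29.9 (22.3 to 40.9), and at 919 CPM and 21.6 CPM in the control library, a ratio of 42.5 (32.2 to 57.2). The connexin gene Gjb6 was likewise scarce in Rax tanycyte-like cells, with 17 UMIs in all dHet and 30 UMIs in all control cells. Its astrocyte-like over Rax ratio was 19.7 (12.2 to 34.2) in the dHet library and 9.73 (6.68 to 14.7) in the control library. The ratio of Slc4a4 was 15.2 (13.5 to 17.1) in the dHet library and 16.4 (14.8 to 18.1) in the control library. Slc1a2 had a ratio of 8.84 (8.09 to 9.67) in the dHet library and 12.6 (11.5 to 13.8) in the control library, and Aqp4 one of 9.84 (8.70 to 11.2) in the dHet library and 7.22 (6.60 to 7.91) in the control library.

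The other 4 genes differed less between these groups. Slc1a3 stood at 3586 CPM in astrocyte-like and 956 CPM in Rax tanycyte-like cells of the dHet library and at 3279 CPM and 737 CPM in the control library. Its ratios were 3.75 (3.56 to 3.95) in the dHet library and 4.45 (4.23 to 4.69) in the control library. Kcnj10 had a ratio of 2.74 (2.27 to 3.33) in the dHet library and 3.21 (2.72 to 3.81) in the control library, and Glul one of 2.35 (2.14 to 2.58) in the dHet library and 2.81 (2.52 to 3.13) in the control library. Gja1 had the smallest ratios, 2.14 (1.997 to 2.30) in the dHet library and 2.03 (1.91 to 2.15) in the control library. Glul and Gja1 were the genes that went under 2-fold in some alternatives, Glul with gates on single cells, at log2 ratios of 0.96 in the dHet library and 0.54 in the control library, and Gja1 at lowest log2 ratios of 0.95 in the dHet library and 0.95 in the control library. The pairs within each role thus differed in reach: the gap was wider for Slc1a2 than for Slc1a3, and wider for Gjb6 than for Gja1, in both libraries and beyond counting error.

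**Figure D1:**
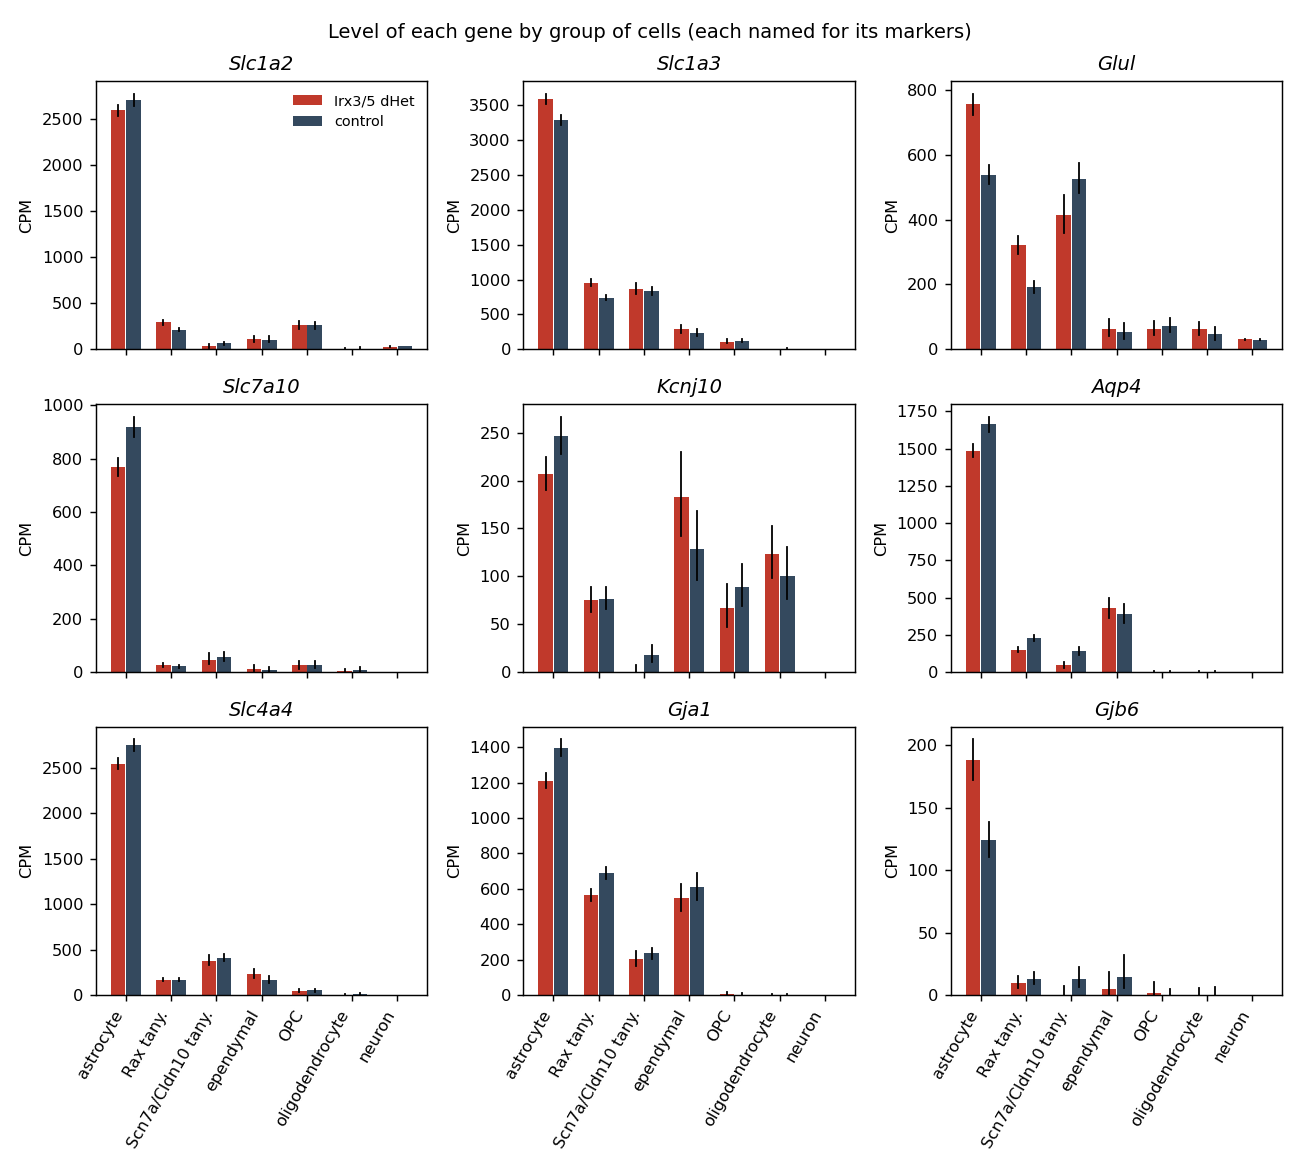
Level of each gene in CPM (vertical axis, from 0, with its own scale for each gene) by group of cells, dHet in red left of control in blue, with exact 95% Poisson intervals as black lines. OPC stands for oligodendrocyte precursor, and each group is named for its likeness by markers. Astrocyte-like cells have the highest level of all 9 genes in both libraries, with Scn7a and Cldn10 tanycyte-like cells within counting error of them for Glul in the control library and ependymal-like cells for Kcnj10 in the dHet library.

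Set against Scn7a and Cldn10 tanycyte-like cells, 8 of the 9 genes were more than 2-fold higher in astrocyte-like cells in each library, where 18.3% of genes tested in the dHet library and 18.2% in the control library were. The exception was Glul. It stood at 754 CPM in astrocyte-like and 414 CPM in tanycyte-like cells of the dHet library, a ratio of 1.82 (1.58 to 2.11), and at 538 CPM and 526 CPM in the control library, a ratio of 1.02 (0.923 to 1.14). The glutamine synthetase transcript was thus at astrocyte level, within counting error, in this tanycyte group of the control library. Slc1a2 was at the other end, with ratios of 74.8 (46.7 to 129) in the dHet library and 41.5 (32.3 to 54.2) in the control library. Aqp4 had ratios of 31.7 (21.1 to 50.05) in the dHet library and 11.8 (9.92 to 14.1) in the control library.

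Kcnj10 and Gjb6 had no UMI in the 47 dHet cells of the Scn7a and Cldn10 group, so only bounds can be given. With a floor of 3 UMIs over the group, 6.12 CPM, Kcnj10 was at least 33.8-fold higher in dHet astrocyte-like cells and Gjb6 at least 30.7-fold higher. These bounds rest on the floor, leave out the counting error of the astrocyte-like cells and are not 95% limits. The exact 95% upper limit for 0 UMIs in this group was 7.52 CPM, above the floor. The 95% intervals of the ratios began lower, at 27.4 for Kcnj10 and 24.9 for Gjb6. In the control library the ratios were 13.8 (8.53 to 23.8) for Kcnj10 and 9.80 (5.53 to 19.2) for Gjb6. Slc7a10, Slc4a4, Gja1 and Slc1a3 lay between these extremes, at 16.4-fold for Slc7a10 down to 4.14-fold for Slc1a3 in the dHet library and 16.2-fold down to 3.95-fold in the control library.

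The tanycyte-like groups did not carry the same set. Slc4a4 was higher in the Scn7a and Cldn10 group than in the Rax group, with ratios of 2.27 (1.88 to 2.73) in the dHet library and 2.45 (2.13 to 2.83) in the control library, past 2-fold in both. Glul was higher there too, with ratios of 1.29 (1.09 to 1.52) in the dHet library and 2.74 (2.41 to 3.12) in the control library, and so was Slc7a10, with ratios of 1.82 (1.05 to 3.07) in the dHet library and 2.63 (1.76 to 3.93) in the control library. Past 2-fold higher were 1 of 9 genes in the dHet library and 3 of 9 in the control library, with 4.44% and 4.12% of all genes tested. Past 2-fold lower were 5 of 9 in the dHet library and 3 of 9 in the control library, with 13.7% and 12.2% of all genes tested. Only 8 of the 9, all but Gjb6, had at least 50 UMIs here, and 4 of the 5 genes past 2-fold lower in the dHet library were among them.

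Gja1 and Slc1a2 were lower in the Scn7a and Cldn10 group. The Gja1 ratios were 0.358 (0.288 to 0.440) in the dHet library and 0.341 (0.295 to 0.393) in the control library, and the Slc1a2 ratios 0.118 (0.0683 to 0.191) in the dHet library and 0.303 (0.229 to 0.395) in the control library. Slc1a3 was close to equal, with ratios of 0.907 (0.814 to 1.01) in the dHet library and 1.13 (1.03 to 1.23) in the control library. The transporters that remove glutamate were split here as well, with Slc1a3 at like levels in both tanycyte-like groups and Slc1a2 higher in the Rax group. With gates on single cells the log2 ratio was -0.057 for Slc4a4 in the dHet library and 0.81 for Slc1a2 in the control library. These differences thus did not hold when cells were chosen that way. The gate on Scn7a and Cldn10 asked for no Rax UMI, which left out most cells of that group.

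**Figure D2:**
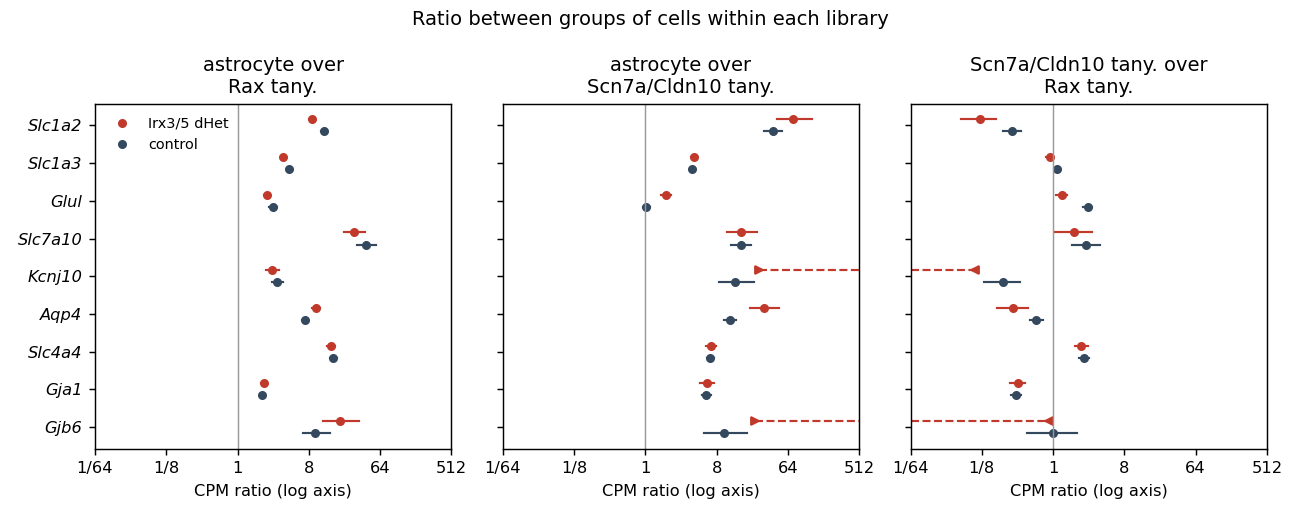
Ratio of CPM between groups of cells within each library (horizontal log axis), dHet in red above control in blue, with exact 95% intervals as lines. Arrowheads with dashed lines mark the bound of the interval where a group had no UMI. All 9 genes lie right of 1 in the first panel, from 2.03 for Gja1 to 42.5 for Slc7a10, both in the control library.

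Shares of cells gave a similar picture once every cell had been thinned to 4000 UMIs, which left 346 dHet and 308 control astrocyte-like cells. Slc4a4 was found in 346 of 346 dHet and 308 of 308 control astrocyte-like cells, and Slc1a3 in 99.7% and 99.7%. Among Rax tanycyte-like cells, 90.3% (85.1 to 94.1) of dHet and 89.7% (85.1 to 93.3) of control cells had Slc1a3, and 43.8% (36.5 to 51.3) and 45.3% (38.8 to 51.9) had Slc1a2. Neuron-like cells, given for comparison, had Slc1a3 in 1.02% of dHet and 1.38% of control cells, but Slc1a2 in 11.1% and 11.7% and Glul in 12.7% and 12.1%. In the Scn7a and Cldn10 group 13.0% (4.94 to 26.3) of dHet and 16.2% (8.36 to 27.1) of control cells had Slc1a2, with intervals that took in the neuron-like shares. Neuron-like cells had 30.8 CPM of Slc1a2 in dHet and 33.8 CPM in control cells, beside 3.02 CPM and 3.67 CPM of Slc1a3. How much of their Slc1a2 and Glul came from the cells themselves was not tested, so these shares are no baseline for absence. Before thinning, neuron-like cells had median depths of 21223 UMIs in the dHet and 22840 UMIs in the control library. Without thinning 61.2% of dHet and 61.6% of control Rax tanycyte-like cells had Slc1a2, beside 36.4% and 39.7% of neuron-like cells.

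**Figure D3:**
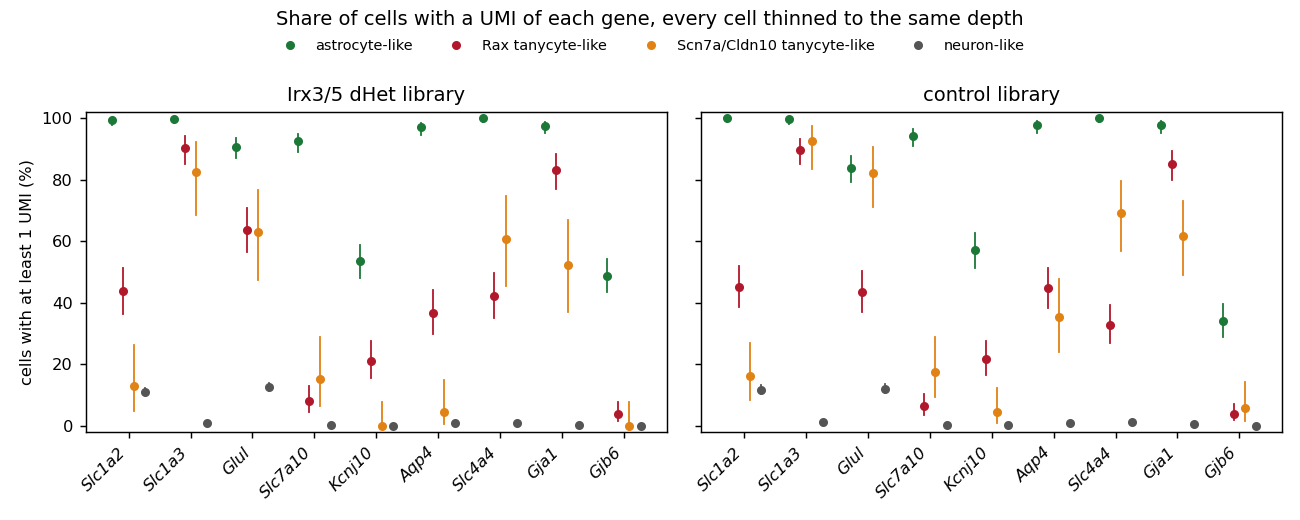
Share of cells with at least 1 UMI of each gene (vertical axis, percent) after every cell was thinned to 4000 UMIs, in the dHet library on the left and the control library on the right, with exact 95% Clopper-Pearson intervals. Slc1a3 and Gja1 are found in most Rax tanycyte-like cells, Slc7a10 in 8.11% of dHet and 6.41% of control ones, and neuron-like cells lie near 0 except for Slc1a2 and Glul.

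Other glia carried single genes of the set. Ependymal-like cells, the ciliated lining of the ventricle, came next after astrocyte-like cells in Aqp4, at 429 CPM in dHet and 389.8 CPM in control cells. They also had Gja1 at 547 CPM in dHet and 610.1 CPM in control cells, which overlapped Rax tanycyte-like cells in both libraries. Kcnj10 had the flattest order of levels. In the dHet library 207 CPM (191 to 225) in astrocyte-like cells overlapped 182 CPM (142 to 230.1) in ependymal-like cells, followed by 123 CPM in oligodendrocyte-like cells. In the control library the 247 CPM (227 to 267) of astrocyte-like cells stood apart, and the next 5 groups, from ependymal-like cells at 128 CPM to Rax tanycyte-like cells at 76.8 CPM, each overlapped their neighbour.

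Slc1a2 was also found in oligodendrocyte precursor-like cells, at 264 CPM in dHet and 262 CPM in control cells, which overlapped Rax tanycyte-like cells in both libraries. Cycling cells had 285 CPM of it in the dHet and 359 CPM in the control library. Glul stood in one order in both libraries, astrocyte-like, Scn7a and Cldn10, then Rax tanycyte-like cells, the first 2 of which overlapped in the control library.

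The genes outside the set with the most similar pattern were ranked over 62 points, each a cluster of at least 20 cells in 1 library. Points of a library share its depth and its free RNA, so Pearson's r is a description here. Slc4a4 was most like S1pr1 (r = 0.971), Gja1 most like Mlc1 (r = 0.968), Slc1a3 most like Fzd2 (r = 0.960), Aqp4 most like Lfng (r = 0.956) and Kcnj10 most like Mro (r = 0.948). Slc7a10 was closest to S1pr1 as well (r = 0.934), Glul to Selenop (r = 0.922), Gjb6 to Acsbg1 (r = 0.919) and Slc1a2 to the GABA transporter gene Slc6a11 (r = 0.888).

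In astrocyte-like cells the dHet library had more Glul and Gjb6 transcript and slightly less of 6 other genes. Glul stood at 754 CPM (723 to 787) in dHet and 538 CPM (509.8 to 568) in control cells, a ratio of 1.40 (1.31 to 1.502). Gjb6 stood at 188 CPM (172 to 205) in dHet and 124 CPM (110.5 to 138) in control cells, a ratio of 1.52 (1.32 to 1.75). Neither gene's intervals overlapped between the libraries, and these were the highest ratios of the set. Slc1a3 was at 3586 CPM in dHet and 3279 CPM in control cells, a ratio of 1.09 (1.06 to 1.13).

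The 6 genes that were lower in dHet astrocyte-like cells differed by small amounts. Slc7a10 was at 768 CPM in dHet and 919 CPM in control cells, a ratio of 0.836 (0.788 to 0.887). Kcnj10 was at 207 CPM in dHet and 247 CPM in control cells, a ratio of 0.840 (0.749 to 0.942). These were the lowest ratios of the set in astrocyte-like cells. Gja1 was at 1209.8 CPM in dHet and 1397 CPM in control cells, a ratio of 0.866 (0.826 to 0.908), and Aqp4 at 1487 CPM in dHet and 1664 CPM in control cells, a ratio of 0.893 (0.856 to 0.933). Slc4a4 was at 2545 CPM in dHet and 2748 CPM in control cells, a ratio of 0.926 (0.896 to 0.957), and Slc1a2 at 2595 CPM in dHet and 2710.2 CPM in control cells, a ratio of 0.957 (0.926 to 0.990). Over all astrocyte-like cells both were lower in dHet cells except where single cells were gated on a combination of markers. The log2 ratios were then 0.04 for Slc4a4 and 0.09 for Slc1a2.

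None of the 9 genes was past 1.5-fold on the log2 scale with 5 CPM added, where 3.96% of 9395 genes were. Gjb6 lay just under that line at a log2 ratio of 0.58, and passed it in 7 of 12 alternative treatments of the data, in all of which it was higher in dHet cells (0.50 to 0.73). Glul had a log2 ratio of 0.48, from 0.41 to 0.59 over the 12 alternatives. The median log2 ratio of the 9 genes was -0.11, against -0.02 for all genes tested. Summed neuron markers in these cells were 339 CPM in dHet and 220.2 CPM in control cells, 11 of 11 being found in both libraries, and their part in the ratios was not tested.

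More dHet cells also had a UMI of Glul and Gjb6 at equal depth. Of astrocyte-like cells thinned to 4000 UMIs, 90.8% (87.2 to 93.6) of dHet and 83.8% (79.2 to 87.7) of control cells had Glul. For Gjb6 the shares were 48.8% (43.5 to 54.2) of dHet and 34.1% (28.8 to 39.7) of control cells, beside 0.0704% and 0.0459% of neuron-like cells. Before thinning 58.2% of dHet and 41.4% of control astrocyte-like cells had it. The transcripts were spread over many cells: the 5 cells with the most Glul held 4.63% of it in the dHet and 5.63% in the control library.

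**Figure D4:**
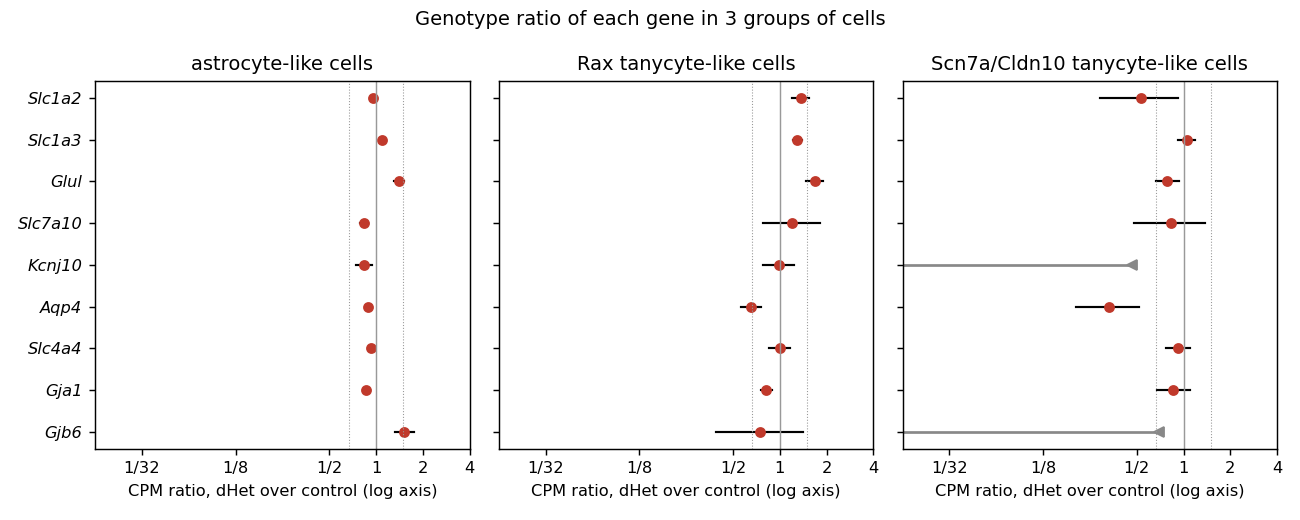
Ratio of CPM, dHet over control, for each gene in 3 groups of cells (horizontal log axis) with exact 95% intervals that cover counting error only. Dotted lines mark 1.5-fold in either direction, and grey arrowheads mark the upper bound where the dHet cells had no UMI. Glul lies right of 1 in astrocyte-like (1.40) and Rax tanycyte-like cells (1.67) and left of it in Scn7a and Cldn10 tanycyte-like cells (0.788).

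A finer clustering split most astrocyte-like cells into 3 sub-clusters, and Glul and Gjb6 were higher in dHet cells of each. The sub-cluster led by Fgfr3 and Gm3764 held 57 dHet and 131 control cells, the one led by Id3 and Gfap 151 dHet and 105 control cells, and the one led by Pla2g7 and Agt 216 dHet and 183 control cells. In this order the Glul ratios were 1.34 (1.09 to 1.65), 1.52 (1.31 to 1.77) and 1.44 (1.32 to 1.57). The Gjb6 ratios were 1.74 (1.12 to 2.68), 1.28 (0.915 to 1.81) and 1.63 (1.37 to 1.94), the second of which has an interval that includes 1.

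Slc1a3 was higher in dHet cells of each sub-cluster too, with ratios of 1.25 (1.15 to 1.35), 1.23 (1.15 to 1.31) and 1.09 (1.05 to 1.14) in the same order. Slc7a10 was lower in each, with ratios of 0.779 (0.652 to 0.928), 0.818 (0.720 to 0.931) and 0.936 (0.868 to 1.01), the last with an interval that includes 1. Slc1a2 had no common direction, at 1.13 (1.04 to 1.24), 0.885 (0.827 to 0.948) and 1.05 (1.01 to 1.10), and neither had Slc4a4, at 1.08 (0.980 to 1.18), 1.05 (0.982 to 1.13) and 0.908 (0.870 to 0.948). The Id3 and Gfap cells had the lowest level of 8 of the 9 genes among the 3 sub-clusters in each library. Their Aqp4 was the highest, at 1500.0 CPM in dHet and 1786 CPM in control cells, but close to that of the Pla2g7 and Agt cells. Those had 1484 CPM in dHet and 1737 CPM in control cells. Gfap, an intermediate filament gene of astrocytes, was at 331 CPM in dHet and 158 CPM in control cells over all astrocyte-like cells, a ratio of 2.09 (1.86 to 2.36), and its part in the ratios of the 9 genes was not tested.

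**Figure D5:**
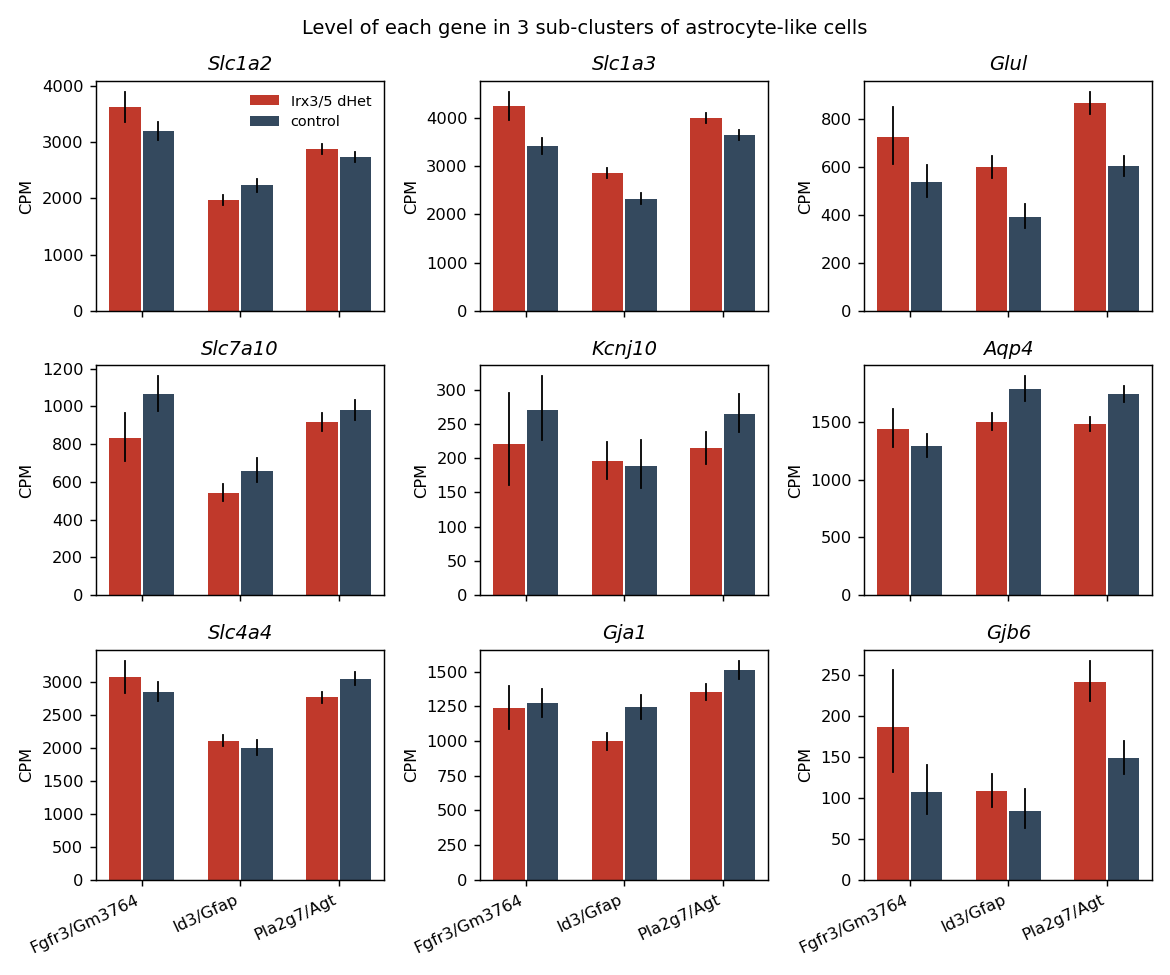
Level of each gene in CPM (vertical axis, from 0) in 3 sub-clusters of astrocyte-like cells named by their leading genes, dHet in red left of control in blue, with exact 95% Poisson intervals. Glul is higher in dHet cells of each sub-cluster, and the Id3 and Gfap sub-cluster has the lowest Gjb6 in both libraries.

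Over all Rax tanycyte-like cells the dHet library had more Glul, Slc1a3 and Slc1a2, the genes of glutamate clearance. Glul stood at 321 CPM (295 to 348) in dHet and 192 CPM (174 to 210.3) in control cells, a ratio of 1.67 (1.48 to 1.90). Slc1a3 stood at 956 CPM in dHet and 737 CPM in control cells, a ratio of 1.30 (1.21 to 1.39), and Slc1a2 at 294 CPM in dHet and 216 CPM in control cells, a ratio of 1.36 (1.204 to 1.54). At equal depth 63.8% (56.4 to 70.7) of dHet and 43.6% (37.1 to 50.2) of control cells had Glul, above the neuron-like share. With every cell thinned, however, the log2 ratio of Slc1a2 was -0.01, against 0.44 with all UMIs.

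Aqp4 and Gja1 were lower in the same cells. Aqp4 stood at 151 CPM (134 to 170.2) in dHet and 230.4 CPM (211 to 251) in control cells, a ratio of 0.656 (0.564 to 0.760), and Gja1 at 564 CPM in dHet and 688 CPM in control cells, a ratio of 0.820 (0.758 to 0.888). The intervals for Kcnj10, Slc4a4, Slc7a10 and Gjb6 included 1. Past 1.5-fold higher was 1 of the 9 genes, Glul, where 1.69% of 8887 genes were, and past 1.5-fold lower was 1, Aqp4, where 2.69% were. Glul stayed past the line in 10 of 11 alternatives, the exception being a gate on Rax in single cells, at a log2 ratio of 0.17. Aqp4 stayed past it in 3 of 11, and under that gate it was higher in dHet cells, at 0.42, as was Gja1, at 0.30.

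Markers of other cells of the ventricle wall were lower in dHet Rax tanycyte-like cells as well. Foxj1 and Tmem212, genes of ciliated ependymal cells, had ratios of 0.666 (0.546 to 0.810) and 0.483 (0.377 to 0.615). The 7 ependymal markers summed to 1336 CPM in dHet and 1625 CPM in control cells, with 5 of 7 in at least 25% of cells in both libraries and none at 0. Neuron markers summed to 415 CPM in dHet and 320.3 CPM in control cells, with 3 of 11 in at least 25% of dHet and 2 of 11 in at least 25% of control cells. The immediate early gene Fos had a ratio of 0.277 (0.242 to 0.315) and Gfap one of 0.136 (0.0985 to 0.183). Their part in the ratios of Aqp4 and Glul was not tested.

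Within finer clusters of this group Glul was about as much higher in dHet cells as over the whole group. In the sub-cluster led by Crym and Frzb, of 98 dHet and 116 control cells, Glul was at 482 CPM in dHet and 296 CPM in control cells, a ratio of 1.63 (1.41 to 1.88). In the one led by S100a6 and Tnfrsf19, of 95 dHet and 97 control cells, it was at 159.7 CPM in dHet and 83.4 CPM in control cells, a ratio of 1.92 (1.40 to 2.65). Aqp4 ratios there were 0.878 (0.706 to 1.09) and 0.760 (0.551 to 1.05), both with intervals that include 1. Gja1 had ratios of 1.12 (0.993 to 1.27) in the Crym and Frzb sub-cluster and 0.727 (0.632 to 0.835) in the S100a6 and Tnfrsf19 one, so its lower level in dHet cells was not shared by both. The sub-clusters differed in the channel gene too: in the sub-cluster led by S100a6 and Tnfrsf19 Kcnj10 was at 115 CPM in dHet and 128 CPM in control cells, and in the one led by Crym and Frzb at 27.7 CPM in dHet and 40.5 CPM in control cells.

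Of the 9 genes, 4 were past 1.5-fold lower in dHet than in control cells of the Scn7a and Cldn10 group, where 7.57% of 4626 genes were, and none was past 1.5-fold higher, where 4.41% were. With at least 50 UMIs, 7 of the 9 could be set against all genes, and 2 of those 7 were among the 4. Aqp4 had 23 UMIs in dHet and 134 UMIs in control cells, 46.9 CPM (29.7 to 70.4) and 141 CPM (118 to 167), a ratio of 0.332 (0.204 to 0.520). It stayed past the line in 12 of 12 alternatives. Slc1a2 had 17 UMIs in dHet and 62 UMIs in control cells, a ratio of 0.531 (0.291 to 0.920).

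Kcnj10 had 0 UMIs in dHet and 17 UMIs in control cells, and Gjb6 0 UMIs in dHet and 12 UMIs in control cells. Against the floor of 3 UMIs over the dHet group they were at least 2.93-fold lower and at least 2.07-fold lower in dHet cells. The 95% intervals of the dHet over control ratios reached up to 0.469 for Kcnj10 and 0.697 for Gjb6, so that of Gjb6 includes differences under 1.5-fold. These intervals also take in the counting error of the control cells, and their limit for 0 UMIs lies above the floor. The median log2 ratio of the 9 genes was -0.34, also with these genes at their bounds, against -0.06 for all genes tested. In the alternative that used cells of the deposited matrices that median was -0.11, and with gates on single cells it was -1.48.

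A few control cells held most of each of these scarce transcripts, but not the same cells for each gene. In the control library the 5 cells with the most of a gene, chosen for each gene in turn, held 69.4% of the Slc1a2, 82.4% of the Kcnj10 and 91.7% of the Gjb6 of all 74 cells. So few UMIs can reach only some of the 74 cells, and the share under an even spread was not worked out. The 5 cells with the most Slc1a2 had 608 CPM of it, against 21.6 CPM in the other 69 control cells, and 21.3 CPM in the 42 dHet cells outside the dHet library's own 5. The 5 control cells held 7 of 17 Kcnj10 UMIs and 0 of 12 Gjb6 UMIs. They also held 9 of 16 Agt UMIs and 6 of 8 Ntsr2 UMIs of the control group, both astrocyte markers, and 2 of its 188 Rax UMIs. Another astrocyte marker, Aldoc, was at 2983 CPM, against 2835 CPM in the other control cells. The markers that name the group were not low in these 5 cells, with Scn7a at 1131 CPM, against 1016 CPM in the other control cells, and Cldn10 at 5826 CPM, against 3368 CPM in the other control cells. Without the 5 highest cells of each library the log2 ratio of Slc1a2 was -0.02, against -0.83 with them, and that of Gjb6 -0.29, against -1.82. Kcnj10 stayed past 1.5-fold lower, at -0.74, against -2.20. The cells left out were those with the most of the gene itself. Kcnj10 and Gjb6 had 0 UMIs in dHet cells, so for these genes this step could only shrink the difference. Over the whole list of 13 astrocyte markers, the group summed to 3147 CPM in dHet and 3656 CPM in control cells, with 5 of 13 markers in at least 25% of dHet and 6 of 13 in at least 25% of control cells. Ntsr2 was one of 2 markers at 0 in dHet cells, and none was at 0 in control cells.

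Glul was lower in dHet cells of this group. It stood at 414 CPM (359 to 475) in dHet and 526 CPM (481 to 574) in control cells, a ratio of 0.788 (0.666 to 0.929), where astrocyte-like and Rax tanycyte-like cells had ratios above 1. At equal depth 63.0% (47.5 to 76.8) of dHet and 82.4% (71.2 to 90.5) of control cells had it, and 4.35% (0.531 to 14.8) of dHet and 35.3% (24.1 to 47.8) of control cells had Aqp4. Slc1a3, Slc4a4, Gja1 and Slc7a10 had ratios between 0.825 and 1.04, with intervals that included 1. The heat shock gene Hspa1a was at a ratio of 0.277 (0.233 to 0.328) and Fos at 0.672 (0.627 to 0.719) in these cells. Neuron markers summed to 196 CPM in dHet and 88.5 CPM in control cells, with 3 of 11 at 0 in dHet cells and none at 0 in control cells. The part of these genes in the Glul ratio was not tested.

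Other genes of the same pathways were followed in 6 lists. Of 17 genes for potassium channels, ion pumps and cation cotransport, 13 had at least 50 UMIs in astrocyte-like cells. Of these, 3 were past 1.5-fold higher in dHet cells and none past 1.5-fold lower, where 1.69% of all genes were that much higher and 2.27% that much lower, and their median log2 ratio was 0.17. Kcnk1, a leak potassium channel gene, was at 27.1 CPM in dHet and 10.8 CPM in control cells, a ratio of 2.52 (1.60 to 4.07). Fxyd6 and Fxyd7, which encode small regulators of ion transport, had ratios of 2.22 (1.64 to 3.02) and 1.73 (1.11 to 2.75). Neuron markers were higher in the same dHet cells, as given above, and their part in these ratios was not tested.

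The other 5 lists had no gene past 1.5-fold in astrocyte-like cells. They held 9 transmitter and amino acid transporters with at least 50 UMIs, 12 genes of glutamate, glycine and serine metabolism, 12 of water, chloride and endfoot anchoring, 3 of gap junctions and pannexins and 8 of bicarbonate, proton and lactate transport. Among genes that anchor endfeet, Dmd, which encodes dystrophin, was at 131 CPM in dHet and 174 CPM in control cells, a ratio of 0.750 (0.651 to 0.863), and Dtna, which encodes a dystrobrevin, had a ratio of 0.862 (0.799 to 0.929).

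Between groups of cells the related genes fell on both sides. Of 10 transporters with at least 50 UMIs in the dHet library, 7 were past 2-fold higher in astrocyte-like than in Rax tanycyte-like cells and 2 past 2-fold lower, and of 10 in the control library 8 were higher and 2 lower. Of all genes tested, 12.9% in the dHet library and 15.6% in the control library were past 2-fold lower. The GABA transporter gene Slc6a11 had astrocyte-like over Rax ratios of 14.9 (13.3 to 16.8) in the dHet library and 18.1 (16.3 to 20.2) in the control library, and the glycine transporter gene Slc6a9 had ratios of 30.1 (18.4 to 52.9) in the dHet library and 17.6 (12.9 to 24.6) in the control library. Slc38a1, which encodes a glutamine transporter, was lower there, with ratios of 0.0885 (0.0747 to 0.104) in the dHet library and 0.0765 (0.0636 to 0.0913) in the control library. Glud1, which encodes glutamate dehydrogenase, had ratios of 8.21 (7.15 to 9.48) in the dHet library and 7.21 (6.45 to 8.09) in the control library, and the carbonic anhydrase gene Car2 had ratios of 17.6 (11.9 to 27.1) in the dHet library and 10.1 (7.86 to 13.1) in the control library.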

How the data were processed

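Cells were profiled by 3′ droplet single-cell RNA sequencing. The deposited files hold UMI counts per gene and barcode, made by the authors with Cell Ranger on build mm10 per the submitters' processing notes (version 3.0.2 per the file headers). The merged count table that the authors deposited was used; in the cells it shares with the deposited matrices, the rows of the 9 genes were identical (0 cells differed). No column of per-sample values was left unused.

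Barcodes of the merged table were scored for doublets with Scrublet in scanpy 1.11.5, which removed 31 dHet (0.787%) and 14 control (0.402%) barcodes. Both libraries were clustered together on 2000 variable genes (30 principal components, 15 neighbours, Leiden resolution 1). A non-neuronal cluster was named if at least 3 markers of a type were in at least 25% of its cells. Its 10 leading genes also had to hold a marker of that type and not favour another. Neuron-like clusters were named last, by a higher count of neuron markers and a minimum median depth, so shallow neuron clusters could stay unnamed. Names are therefore rebuilt, and 106 dHet and 205 control cells stayed unnamed. A shallow tanycyte-like cluster of 30 dHet and 27 control cells was left out of the tanycyte-like groups. UMIs were summed per group and library and divided by all UMIs of the group (CPM). Levels have exact Poisson intervals, ratios exact conditional binomial ones and shares exact Clopper-Pearson ones (scipy 1.17.1). Log2 ratios have 5 CPM added to both sides, which understates differences of low genes. Genes with at least 50 UMIs entered the background counts. The genotype count in astrocyte-like cells was checked on simulated data, and the other counts were not. The simulation had counting error only, with no spread between cells or animals. With the same number of genes changed each time, 74 were called in the right direction at a true 1.5-fold, 176 at 2-fold and 198 at 3-fold. A true 1.5-fold change lies on the line and the added 5 CPM pulls it under, so many misses there follow from the rule itself. Of unchanged genes, 0.511%, 0.685% and 0.522% were called in the same runs.

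The 9 genes and the marker and pathway lists were chosen with earlier results of these data known. Named pathway genes were the up to 3 per list with the largest log2 ratio in astrocyte-like cells, by genotype or against the Rax group, of which 2 are not reported here; other genes given beside a result, such as Fos and Gfap, were also chosen with values of these data known. Alternatives were other choices of cells, doublets kept, other pseudocounts, thinned cells, equal weight per cell, the 5 highest cells left out, median-ratio scaling, other clusterings and gates on single cells. Gates took cells outside neuron-like clusters. The astrocyte gate asked for a combination of astrocyte markers, no Rax UMI and not both Scn7a and Cldn10. The Scn7a and Cldn10 gate asked for both genes and no Rax UMI, and the Rax gate for Rax UMIs.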

Additional observations from a re-analysis of the deposited data

Results flagged for a closer look

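For 3 genes the genotype ratio pointed one way in one group of cells and the other way in another group, with 95% counting intervals that left out 1 in both; only such ratios are given here. With 1 library per genotype the difference between groups was not tested. Slc1a2 had dHet over control ratios of 0.957 in astrocyte-like cells and 0.531 in Scn7a and Cldn10 tanycyte-like cells, and of 1.36 in Rax tanycyte-like cells. Glul had ratios of 1.40 in astrocyte-like and 1.67 in Rax tanycyte-like cells, and of 0.788 in Scn7a and Cldn10 tanycyte-like cells. Gjb6 had a ratio of 1.52 in astrocyte-like cells and of 0 in Scn7a and Cldn10 tanycyte-like cells, where the dHet library had 0 UMIs and the control library 12 UMIs.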

How the results depend on the processing

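No paired analysis was possible because each genotype had 1 library, and for the same reason no replicate could be left out. Of 927 values of single genes under the alternatives, 719 lay within the counting interval of the reported value, 205 lay outside it with no reversal, and 3 reversed. All 3 reversals came with gates on single cells, where the log2 ratio was 0.42 for Aqp4 (dHet over control, Rax tanycyte-like cells), -0.057 for Slc4a4 (Scn7a and Cldn10 over Rax group, dHet library) and 0.81 for Slc1a2 (the same, control library). These gates took other cells: of 21 dHet and 19 control cells gated on Scn7a and Cldn10, 12 and 13 were in that cluster group. This gate also asked for no Rax UMI, while 61.7% of dHet and 75.7% of control cells of the cluster group had Rax. By its rule it therefore left out most of the group. The median log2 ratio of the 9 genes in the Scn7a and Cldn10 group was -0.34 for dHet over control and -0.11 with cells of the deposited matrices. With gates on single cells it was -1.48, and 8 of the 9 genes were past 1.5-fold lower. For astrocyte-like over these cells in the control library it was 2.87, 3.95 without the 5 highest cells and 1.85 with gates. Counts of genes past 1.5-fold by genotype depended on the settings. In astrocyte-like cells they were 372, 620 with no minimum of UMIs, 638 with 1 CPM added and 61 with 20 CPM added. In Rax tanycyte-like cells they were 389, and under the same settings 880, 625 and 90. In Scn7a and Cldn10 tanycyte-like cells they were 554, 3268 with no minimum and 325 with 20 CPM added. Leiden resolution 0.5 gave no group led by Rax and so no value for it. The cause of these differences was not tested. Of the 3 groups compared by genotype, depth limits the Scn7a and Cldn10 group most, where 3 UMIs over the dHet cells are 6.12 CPM. Without a second library per genotype, none of the genotype ratios can be told apart from differences between pools of animals, sorts or libraries.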
